A study of Homo sapiens with 6 samples.

Results

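The genes described here encode the chaperones and cochaperones of HCT116, a cell line from a human colorectal carcinoma, measured after knockdown of TCF7L1. The members were chosen by gene symbol, with earlier results of these data known. By rule they were every DNAJA, DNAJB, DNAJC and CCT gene, TCP1, and a written list. The list held HSP70, HSP90, HSP110, small heat shock, BAG and mitochondrial chaperonin genes with HSF1 and the HSP90 cochaperones. That rule took 132 probes of 83 genes, out of 47225 probes and 20043 named genes on the array. Of the 83 genes, 72 were above background and could be tested, among 10470 tested genes in all. The label cytosolic held for only part of the set. The rule also takes J proteins of the endoplasmic reticulum (6 are listed here) and mitochondrial genes (8 are listed here).

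The tested cells carried a short hairpin RNA against TCF7L1 (shTCF7L1) and the comparison cells a control hairpin (shCtrl), with 3 arrays each. TCF7L1 is a DNA-binding protein of the TCF/LEF family, which acts at Wnt target genes, and the series asks which transcripts differ when it is knocked down. The series calls the 3 samples of a group biological replicates, and the labels give neither the time of knockdown nor how the replicates were separated. The labels name 1 hairpin against TCF7L1 and 1 cell line.

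The arrays were alike in depth, with a mean bead signal of 162 to 177 units and 34.0% to 36.8% of probes detected. The TCF7L1 probe was dim: its bead signals were 29.3, 32.4 and 25.4 in shTCF7L1 cells, against 45.1, 35.8 and 40.6 in shCtrl cells. It was detected on 0 of 3 shTCF7L1 arrays and on 2 of 3 shCtrl arrays, so it failed the detection filter (detection p below 0.01 on at least 3 of 6 arrays). In the same limma fit with that probe added the adjusted p was 0.0800, which is not a call, with means of 4.34 in shTCF7L1 cells and 4.87 in shCtrl cells. With no shTCF7L1 array above background, and shCtrl replicate 2 not detected either, the size of the difference cannot be given. The 6 arrays shared 1 chip, and the 3 of a group were neighbours on it, so position and group cannot be told apart. On the second principal component shTCF7L1 replicate 3 (-24.9) stood apart from shTCF7L1 replicates 1 and 2 (13.9 and 12.5). Of 9 colorectal epithelial markers 6 were tested: KRT8 fell (log2 difference -0.82, adjusted p = 0.0305), and CDH1 (-0.53), KRT18 (-0.37), KRT19 (-0.02), CDX2 (0.08) and EPCAM (0.42) were not called. Their summed bead signal was 7133 to 9688 in shTCF7L1 cells and 7897 to 9883 in shCtrl cells. KRT20 was detected on 1 array, and VIL1 and LGALS4 on 0. Of 7 markers of other cell types 3 were tested: COL1A1 rose (1.14, adjusted p = 0.0116), and ALB (0.35) and VIM (-0.19) were not called. Their summed signal was 255 to 357 in shTCF7L1 cells and 209 to 243 in shCtrl cells, and PTPRC, PECAM1, COL1A2 and MLANA were detected on 0 arrays. The part of these markers in the chaperone values was not tested. In bulk RNA such as this, fewer cells of a type and less RNA per cell cannot be told apart.

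Chaperones keep proteins folded by cycles of binding and release. HSP70 proteins bind exposed stretches of unfolded chains, and J proteins (the DNAJ families) bring them clients and switch on their ATPase. Nucleotide exchange factors such as the HSP110 proteins and several BAG proteins reset the cycle. HSP90 and its cochaperones take over partly folded clients such as kinases and steroid receptors, and the CCT ring, a chaperonin of the cytosol, encloses actin and tubulin while they fold. Many of these genes are switched on by heat shock factor 1 (HSF1) through heat shock elements in their promoters.

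Most chaperone transcripts did not pass the test, and those that did were few and ran both ways. In shTCF7L1 cells 7 of the 72 tested members (9.72%) were called changed, beside 15% of all tested genes. DNAJB5, DNAJB6, DNAJB2 and HSPH1 were higher, and PTGES3, CCT6B and DNAJC27 were lower. A gene was called at an adjusted p below 0.05 (limma, Benjamini-Hochberg over the 10470 genes). The 4 members called higher stand beside 7.85% of all genes, and the 3 called lower beside 7.11%. The counts of calls in each family below are to be read beside the same shares. Values are normalised log2 intensities, and differences are shTCF7L1 minus shCtrl.

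The members' differences ran between -0.94 and 1.17 with a median of 0.06, beside 0.02 over all tested genes. Their median absolute difference was 0.26, beside 0.29 over all genes, and 40 were positive and 32 negative. At an unadjusted p below 0.05 there were 16 members (22.2%), beside 29.8% of all genes. The 2 groups did not overlap in 21 members (29.2%), 12 with shTCF7L1 above and 9 below, where 33.9% of all genes did not overlap. DNAJB5 was the 1 member past both the test and a 2-fold change, which 4.25% of all genes passed. For 59 of the 65 members not called, the 95% interval of the ratio lay within 2-fold in either direction.

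**Figure D1:**
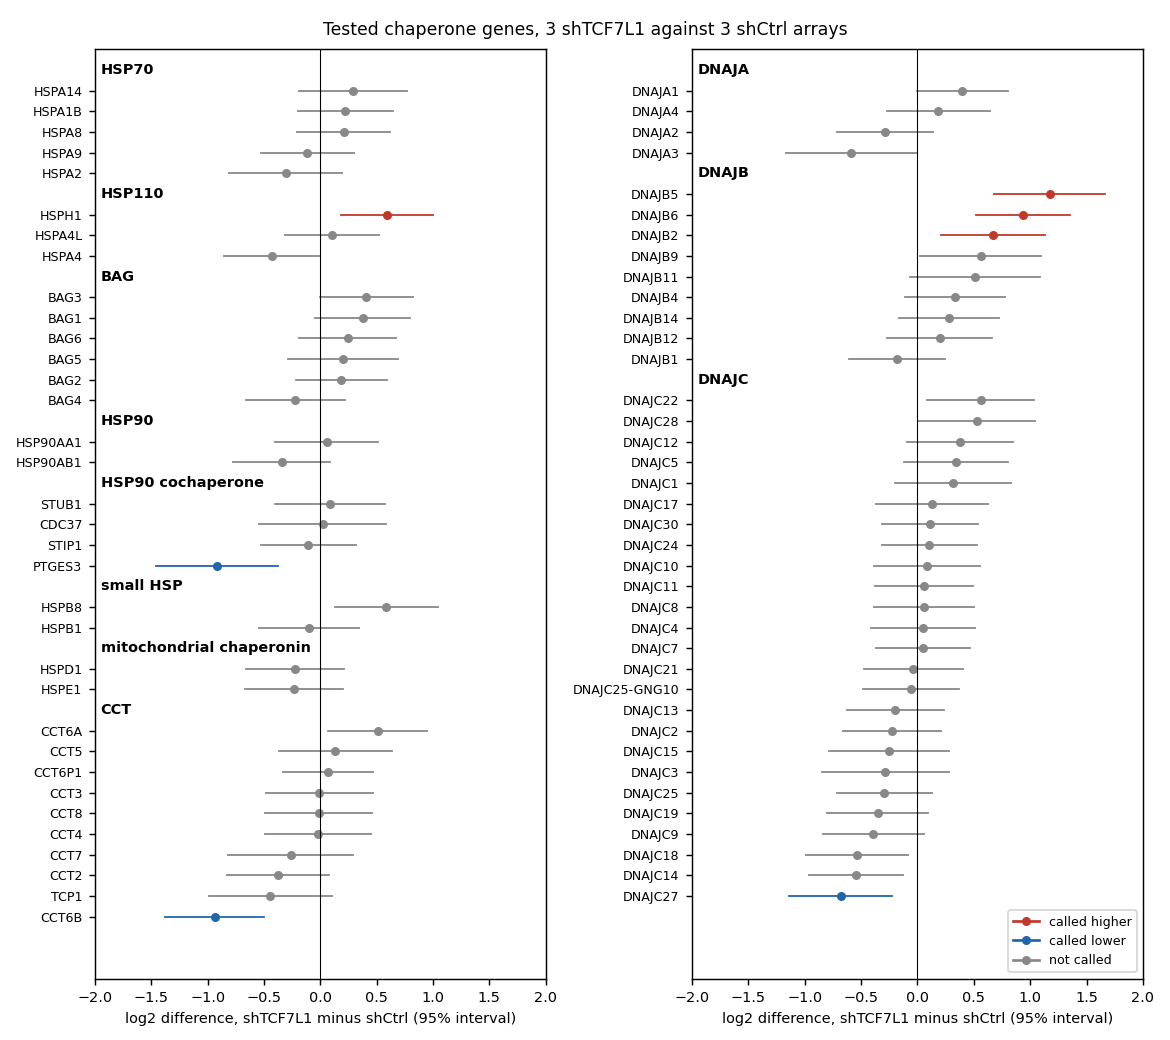
Log2 difference (shTCF7L1 minus shCtrl, x axis) of each of the 72 tested members, grouped by role down the page; the bars are 95% intervals from the limma fit of 3 arrays a group. Most intervals cross 0, the 4 members called higher reach up to 1.17 (DNAJB5), and the 3 called lower reach down to -0.94 (CCT6B).

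The DNAJB family held 3 of the 4 members called higher. Proteins of this family carry a J domain with a glycine-rich linker, and several of them keep aggregating clients soluble. Of 13 DNAJB genes 9 were tested; 3 rose (33.3%, beside 7.85% of all genes), 0 fell (beside 7.11%) and 6 did not pass the test. The family was singled out after its values were seen, and its difference from other genes was not tested. In it 8 differences were positive and 1 negative, with a median of 0.51. Of the 13, DNAJB3, DNAJB7, DNAJB8 and DNAJB13 were not above background.

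DNAJB5 encodes a cytosolic J protein related to DNAJB1, and it had the largest difference among the tested members. Its log2 intensities were 7.04, 6.88 and 6.32 in shTCF7L1 cells, against 5.34, 5.90 and 5.48 in shCtrl cells. Every shTCF7L1 array was above every shCtrl array, and the gene was 2.25-fold higher (log2 difference 1.17, SE 0.23, adjusted p = 0.00359, limma). The call held in all 18 alternatives, with a difference of 0.79 at a background offset of 50 and 1.53 with the authors' processed values.

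DNAJB6 encodes a J protein that suppresses the aggregation of polyglutamine proteins, and it is made as a long nuclear and a short isoform. The probe of higher mean intensity, annotated to a transcript of the short isoform, read 9.68, 9.85 and 10.01 in shTCF7L1 cells, against 8.77, 8.92 and 9.04 in shCtrl cells. On that probe DNAJB6 was 1.91-fold higher in shTCF7L1 cells (log2 difference 0.93, SE 0.20, adjusted p = 0.00543, limma). The other kept probe, annotated to a transcript of the long isoform, read 7.46, 8.04 and 7.81 in shTCF7L1 cells, against 8.20, 8.22 and 8.59 in shCtrl cells. It pointed the other way, and its difference of -0.57 did not pass the test (SE 0.22, adjusted p = 0.0861 over all kept probes). The mean of the 2 probes differed by 0.18 (adjusted p = 0.538), so the call rests on the first probe.

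The gap between the 2 DNAJB6 probes, taken within each array, was 2.22, 1.81 and 2.20 in shTCF7L1 cells, against 0.56, 0.70 and 0.45 in shCtrl cells. The gap was wider on every shTCF7L1 array, by 1.51 on the log2 scale. The pair was picked for its opposite signs, so the gap is a description with no test.

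DNAJB2 encodes a J protein with ubiquitin-interacting motifs that is abundant in neurons. It read 8.69, 8.46 and 8.11 in shTCF7L1 cells, against 7.44, 7.86 and 7.94 in shCtrl cells, and the groups did not overlap. The gene was 1.59-fold higher in shTCF7L1 cells (log2 difference 0.67, SE 0.22, adjusted p = 0.0492, limma). The call sat at the threshold: it held without shTCF7L1 replicate 3 and was lost without any other single array. The adjusted p then reached 0.181 (without shCtrl replicate 1), and the difference ran from 0.52 to 0.77. With the authors' processed values (adjusted p = 0.117) or no detection filter (0.112) it was also lost. The same held with every probe tested on its own (0.0521) and with the replicate block (0.0701).

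The other 6 DNAJB genes did not pass the test. DNAJB9 and DNAJB11, J proteins of the endoplasmic reticulum, had differences of 0.56 (adjusted p = 0.147) and 0.51 (adjusted p = 0.224). DNAJB1, the main heat-inducible J protein of the cytosol, read 8.60, 8.79 and 8.78 in shTCF7L1 cells, against 8.93, 8.67 and 9.12 in shCtrl cells. These ranges overlapped, and DNAJB1 was the 1 member of the family with a negative difference (-0.18, adjusted p = 0.584). DNAJB4, DNAJB14 and DNAJB12 lay at 0.34, 0.28 and 0.20, and DNAJB12 and DNAJB14 each had another kept probe of opposite sign.

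**Figure D2:**
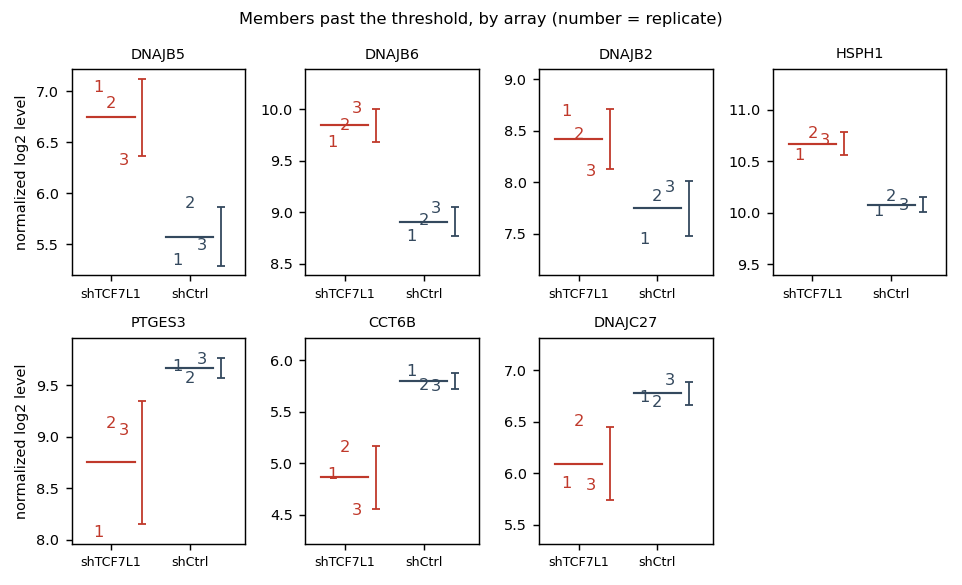
Normalised log2 intensity (y axis) of the 7 members called changed on each array, with shTCF7L1 left of shCtrl; digits are the replicate numbers of the arrays, lines the group means and bars the SD (n = 3). In all 7 the groups do not overlap, and PTGES3 has 1 shTCF7L1 array (8.07) well below the other two (9.12 and 9.06).

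The DNAJC family is the most varied of the J proteins: its members share little beyond the J domain and work at the spliceosome, on vesicles, in mitochondria or at the ribosome. Of 29 DNAJC genes 25 were tested, 0 rose and 1 fell, with a median of 0.05. That is 4% called, beside 15% of all tested genes. DNAJC27, a RAB-related small GTPase joined to a J domain, read 5.90, 6.50 and 5.88 in shTCF7L1 cells, against 6.74, 6.69 and 6.90 in shCtrl cells. It was 1.60-fold lower in shTCF7L1 cells (log2 difference -0.68, SE 0.21, adjusted p = 0.0422, limma). The call held without shTCF7L1 replicate 2 and was lost without any other single array. The adjusted p was then 0.0769 (without shCtrl replicate 2) to 0.133 (without shTCF7L1 replicate 1), and the difference ran from -0.73 to -0.58. With the authors' processed values (adjusted p = 0.0877), a background offset of 50 (0.0565) or median scaling (0.0729) it was also lost. The same held with no detection filter (0.0904) and with the replicate block (0.0555).

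The next DNAJC genes by p were split in direction and did not pass the test. DNAJC14, a membrane J protein, differed by -0.55 (adjusted p = 0.0734), and DNAJC18 by -0.54 (adjusted p = 0.0998), both with no overlap of the groups. DNAJC22 differed by 0.56 (adjusted p = 0.101), and passed only without shCtrl replicate 2 (0.78, adjusted p = 0.0411). DNAJC28 differed by 0.53 (adjusted p = 0.162), with every shTCF7L1 array above every shCtrl array. The histone chaperone DNAJC9 differed by -0.39 (adjusted p = 0.229). The spliceosomal DNAJC8 and the HSP70 and HSP90 adaptor DNAJC7 lay near 0, at 0.06 and 0.05.

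The 4 DNAJA genes, the J proteins closest in layout to bacterial DnaJ, gave 0 calls and a median of -0.05. DNAJA1, a cytosolic partner of HSPA8, read 11.14, 11.22 and 11.25 in shTCF7L1 cells, against 10.78, 10.71 and 10.93 in shCtrl cells. Its groups did not overlap, and its difference of 0.40 did not pass the test (SE 0.19, adjusted p = 0.175). DNAJA3, a mitochondrial J protein, read 10.26, 9.68 and 8.88 in shTCF7L1 cells, against 10.30, 10.21 and 10.07 in shCtrl cells. The shTCF7L1 arrays were widely spread, and the difference of -0.59 (adjusted p = 0.163) became -0.91 (adjusted p = 0.0392) without shTCF7L1 replicate 1.

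The HSP70 proteins that the J proteins serve showed no call among 5 tested genes, with a median of 0.21. HSPA8, the constitutive HSP70 of the cytosol, read 12.06, 12.22 and 12.17 in shTCF7L1 cells, against 12.13, 11.85 and 11.85 in shCtrl cells. Its groups overlapped, and the difference was 0.21 (SE 0.19, adjusted p = 0.518, 95% interval of the ratio 0.867 to 1.54). HSPA1B, the stress-inducible HSP70, read 10.87, 11.17 and 10.84 in shTCF7L1 cells, against 10.57, 10.88 and 10.77 in shCtrl cells, a difference of 0.22 (adjusted p = 0.495). Its near-identical copy HSPA1A had 1 probe, detected on 0 of 6 arrays, so which copy the HSPA1B probe reads is uncertain. HSPA2, a testis-enriched HSP70, HSPA14 of the ribosome-associated complex and the mitochondrial HSPA9 differed by -0.31, 0.29 and -0.12 (adjusted p = 0.414, 0.415 and 0.738).

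The HSP110 proteins, exchange factors for HSP70, went in different directions. HSPH1 read 10.55, 10.77 and 10.70 in shTCF7L1 cells, against 10.01, 10.16 and 10.07 in shCtrl cells, and the groups were clearly apart. It was 1.51-fold higher in shTCF7L1 cells (log2 difference 0.59, SE 0.19, adjusted p = 0.0473, limma). The HSPH1 call was lost when any 1 of the 6 arrays was left out, while its difference stayed between 0.54 and 0.65. Over all genes 1007 to 1156 were called in these fits, beside 1566 with all arrays. The adjusted p of HSPH1 was then 0.0656 (without shTCF7L1 replicate 1) to 0.120 (without shTCF7L1 replicate 2 or shCtrl replicate 1). With the authors' processed values (adjusted p = 0.0880) or median scaling (0.0766) it was also lost. The same held with every probe tested on its own (0.0503) and with the replicate block (0.0661). HSPA4 read 7.82, 7.53 and 7.98 in shTCF7L1 cells, against 8.29, 8.08 and 8.24 in shCtrl cells. Its groups did not overlap, and its difference of -0.43 did not pass the test (SE 0.20, adjusted p = 0.163). A second HSPA4 probe, the dimmer one, read 5.67, 5.86 and 5.83 in shTCF7L1 cells, against 6.70, 7.15 and 6.64 in shCtrl cells. That probe was lower in shTCF7L1 cells (-1.05, SE 0.21, adjusted p = 0.00370 over all kept probes), and the mean of both differed by -0.74 (adjusted p = 0.0110). HSPA4L lay at 0.10 (adjusted p = 0.764).

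The 6 BAG genes, several of which also encode exchange factors for HSP70, gave 0 calls, with 5 positive differences and a median of 0.22. BAG3, the heat-inducible one that routes clients to autophagy, read 9.63, 9.79 and 9.66 in shTCF7L1 cells, against 9.25, 9.48 and 9.14 in shCtrl cells. Its groups did not overlap, and its difference of 0.41 did not pass the test (SE 0.20, adjusted p = 0.175). BAG6, which handles mislocalised membrane proteins, differed by 0.24 on the probe used, and its dimmer probe rose (0.64, adjusted p = 0.0448 over all kept probes). HSPB8, the small heat shock protein that works with BAG3, read 6.05, 6.10 and 6.41 in shTCF7L1 cells, against 5.76, 5.24 and 5.80 in shCtrl cells. This difference of 0.58 also did not pass (SE 0.21, adjusted p = 0.0766), although the groups did not overlap. HSPB1, the abundant small heat shock protein of epithelial cells, lay at -0.10 (adjusted p = 0.787).

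Neither HSP90 gene was called. HSP90AA1, the inducible form, read 12.44, 12.34 and 12.94 in shTCF7L1 cells, against 12.42, 12.75 and 12.39 in shCtrl cells (difference 0.06, SE 0.22, adjusted p = 0.897, 95% interval of the ratio 0.756 to 1.43). HSP90AB1, the constitutive form, read 11.43, 10.93 and 11.28 in shTCF7L1 cells, against 11.55, 11.53 and 11.60 in shCtrl cells. The shTCF7L1 arrays were all below the shCtrl arrays, and the difference of -0.35 did not pass the test (SE 0.20, adjusted p = 0.266).

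Among the 4 tested HSP90 cochaperones PTGES3 was the 1 call (25%, beside 15% of all tested genes). PTGES3 (p23) holds HSP90 in its ATP-bound, client-clamping state. It read 8.07, 9.12 and 9.06 in shTCF7L1 cells, against 9.69, 9.56 and 9.75 in shCtrl cells, and it was 1.89-fold lower in shTCF7L1 cells (log2 difference -0.92, SE 0.25, adjusted p = 0.0234, limma). The spread of PTGES3 among shTCF7L1 arrays (SD 0.59) was wider than among shCtrl arrays (SD 0.10), and shTCF7L1 replicate 1 was the lowest. Without that array PTGES3 differed by -0.57 (adjusted p = 0.0993). The call was also lost without shCtrl replicate 1, 2 or 3 (adjusted p = 0.0650, 0.0521 and 0.0783). With the authors' processed values (adjusted p = 0.105) or no detection filter (adjusted p = 0.128) PTGES3 was not called either. STIP1, which bridges HSP70 and HSP90, the kinase adaptor CDC37 and the ubiquitin ligase STUB1 lay at -0.11, 0.02 and 0.09.

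Of the 11 CCT genes 10 were tested, and 1 was called (10%, beside 15% of all tested genes), with a median difference of -0.02. CCT6B, a testis-enriched counterpart of the ring subunit CCT6A, was dim and fell: it read 4.89, 5.15 and 4.54 in shTCF7L1 cells, against 5.89, 5.76 and 5.75 in shCtrl cells. It was 1.92-fold lower in shTCF7L1 cells (log2 difference -0.94, SE 0.21, adjusted p = 0.00722, limma), and it was detected on 2 of 3 shTCF7L1 arrays and 3 of 3 shCtrl arrays. The call held in all 17 alternatives in which CCT6B could be tested, with a difference of -0.50 at a background offset of 50 and -1.70 with the authors' processed values.

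The subunits that make up the ring in most cells were not called. CCT3, CCT8 and CCT4 lay at -0.01, -0.02 and -0.02, CCT5 at 0.13, CCT7 at -0.26 and CCT2 at -0.38 (adjusted p = 0.251). TCP1, the alpha subunit, read 9.09, 10.26 and 9.79 in shTCF7L1 cells, against 10.36, 10.12 and 10.00 in shCtrl cells (difference -0.44, SE 0.26, adjusted p = 0.262). On this probe shTCF7L1 replicate 1 was the lowest, and without it the difference was -0.13. The 2 other TCP1 probes differed by 0.12 and -0.50, neither called, and on the dimmest the lowest array was shTCF7L1 replicate 2. The CCT7 probe used read 10.34, 11.40 and 11.50 in shTCF7L1 cells, against 11.35, 11.32 and 11.35 in shCtrl cells, with shTCF7L1 replicate 1 lowest again. The 2 other CCT7 probes differed by -0.53 and -0.30, neither called, with every shTCF7L1 array below every shCtrl array. One of them also read lowest in shTCF7L1 replicate 1 and the other read highest there among shTCF7L1 arrays. Over the probes used for the 10 genes the median deviation from the group mean was -0.25 in shTCF7L1 replicate 1, 0.28 in replicate 2 and -0.01 in replicate 3.

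CCT6A had 2 kept probes of opposite sign, at 0.51 (adjusted p = 0.109) and -0.52 (adjusted p = 0.0838 over all kept probes). CCT6P1, a pseudogene of CCT6A whose sequence is close to it, lay at 0.07, and which copy each probe reads is uncertain.

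The mitochondrial chaperonin HSPD1 and its lid HSPE1, whose genes sit head to head, gave -0.23 each (adjusted p = 0.492 and 0.488). HSPD1 read 12.00, 11.87 and 11.99 in shTCF7L1 cells, against 12.27, 11.86 and 12.42 in shCtrl cells. Its 3 kept probes did not move together: another read 11.07, 11.16 and 10.72 in shTCF7L1 cells, against 10.53, 10.45 and 10.67 in shCtrl cells (0.43, adjusted p = 0.169 over all kept probes). The dimmest HSPD1 probe read 6.90, 6.52 and 6.75 in shTCF7L1 cells, against 7.50, 7.19 and 7.50 in shCtrl cells and was lower (-0.68, adjusted p = 0.0352 over all kept probes). HSPE1 read 10.86, 11.24 and 10.79 in shTCF7L1 cells, against 11.05, 11.16 and 11.38 in shCtrl cells. Of the 8 listed mitochondrial members 0 were called, with a median of -0.23. The 6 listed J proteins of the endoplasmic reticulum were DNAJB9, DNAJB11, DNAJC1, DNAJC3, DNAJC10 and DNAJC25. Of these 0 were called, with a median of 0.20.

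**Figure D3:**
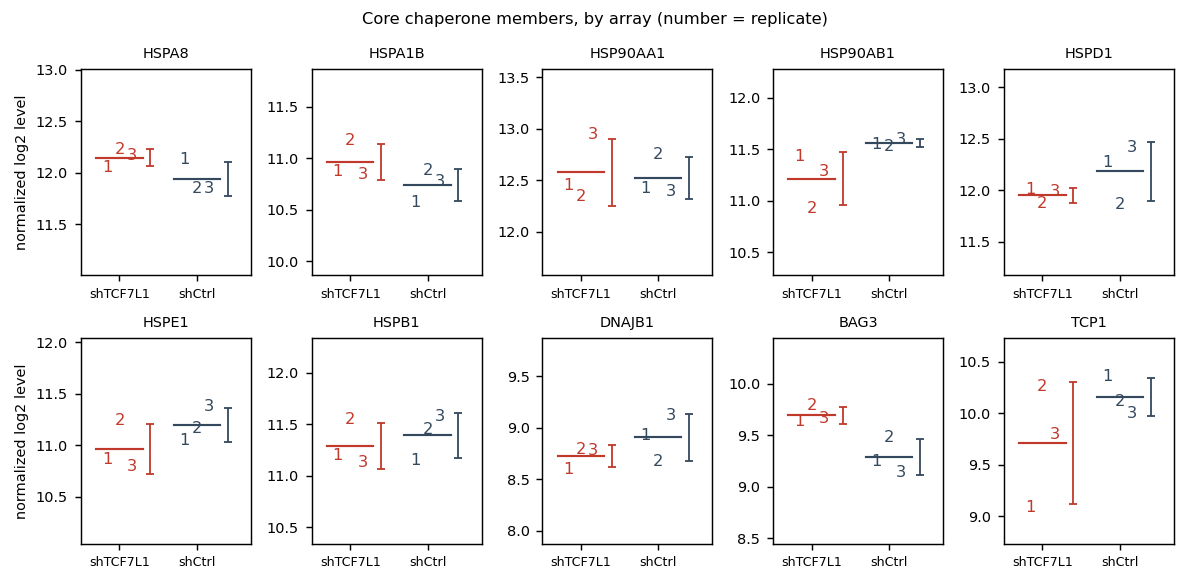
Normalised log2 intensity (y axis) of central chaperones on each array, with shTCF7L1 left of shCtrl; digits are the replicate numbers of the arrays, lines the group means and bars the SD (n = 3). The groups overlap for HSPA8, HSPA1B, HSP90AA1 and DNAJB1, and the TCP1 value of shTCF7L1 replicate 1 (9.09) lies below the other arrays.

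Taken by heat inducibility rather than family, 15 of 17 listed members were tested. The list was HSPA1A, HSPA1B, HSPA8, HSPH1, HSPA4, HSPA4L, HSP90AA1, HSP90AB1, HSPB1, HSPD1, HSPE1, DNAJA1, DNAJB1, DNAJB4, BAG3, STIP1 and AHSA1. It holds HSPA8 and HSP90AB1, named above as constitutive forms, so its values are not those of inducible genes alone. HSPH1 rose, 0 fell and 14 did not pass (6.67% called, beside 15% of all tested genes). The differences were 8 positive and 7 negative, with a median of 0.06. HSF1 itself had 1 probe detected on 0 of 6 arrays, with bead signals of 31.0, 28.9 and 32.8 in shTCF7L1 cells, against 28.9, 28.0 and 27.1 in shCtrl cells, so its level could not be compared. Of the 11 untested members 9 were detected on no array and 2 on 1 array each. HSF2 and AHSA1 were not analysed here.

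Kept probes of the same gene did not always share a sign. Of 22 members with several kept probes, 12 had a kept probe pointing the other way from the one used. Some of these differences lay near 0, as in CCT3 (-0.01 and 0.12), and others lay further apart, as in CCT6A (0.51 and -0.52). The share over all genes with several probes was not taken, so the count is not a result about these members. When each of the 101 kept member probes was tested alone within the fit of all kept probes, 8 were called (3 higher, 5 lower), beside 14.1% of all kept probes with a gene. Besides DNAJB6, probes of HSPA4, HSPD1 and BAG6 were split between called and not called.

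**Figure D4:**
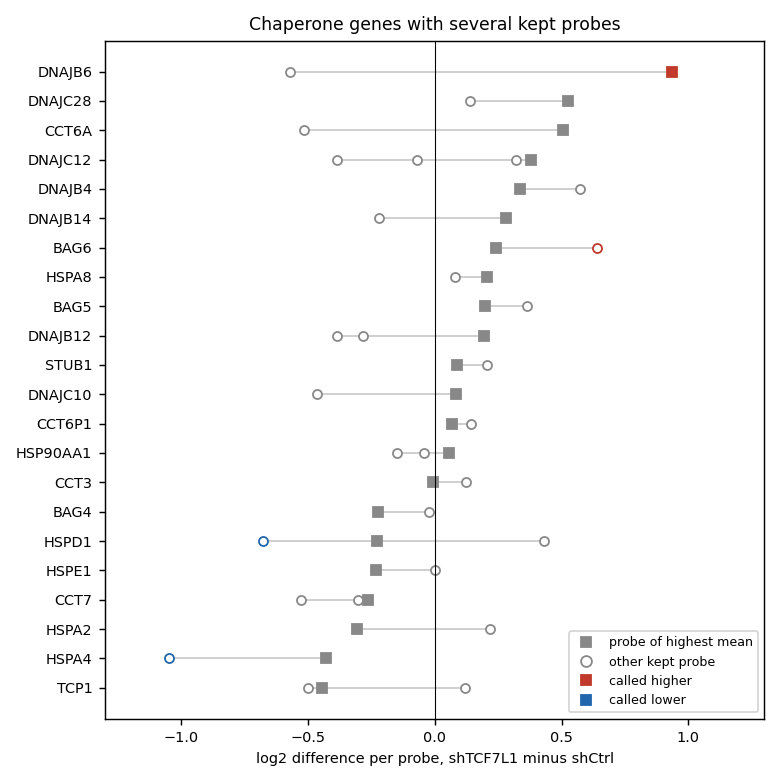
Log2 difference (shTCF7L1 minus shCtrl, x axis) of each kept probe of the members with several probes, 1 row a gene; filled squares mark the probe used for the gene, open circles the others, and colour a call. DNAJB6 (0.93 and -0.57), CCT6A (0.51 and -0.52) and HSPD1 (-0.68 to 0.43) spread across 0, and both HSPA4 probes lie below it.

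Promoters were read for the heat shock elements through which HSF1 acts. The elements searched alternate the units GAA and TTC with any 2 bases between them. A 2-unit run is GAANNTTC or TTCNNGAA, and a 3-unit run adds 1 more alternating unit, so it contains 2-unit runs; the forms cover both strands. In windows of 300 bases (250 before to 50 after the start, RefSeq, GRCh38.p14), 72 of the 83 member genes had a promoter. A 2-unit run stood in 14 of the 72 (19.4%), beside 13.7% of 27305 promoters, and a 3-unit run in 3 (4.17%), beside 0.487%. The 3 were DNAJB6, HSPA8 and DNAJA1. The 250 bases before the start of DNAJB6 (chr7:157336754-157337003, plus strand) and HSPA8 (chr11:123062137-123062386, minus strand) are shown 5′ to 3′ because a 3-unit run stands in each; capitals mark the bases of these runs.
DNAJB6 promoter: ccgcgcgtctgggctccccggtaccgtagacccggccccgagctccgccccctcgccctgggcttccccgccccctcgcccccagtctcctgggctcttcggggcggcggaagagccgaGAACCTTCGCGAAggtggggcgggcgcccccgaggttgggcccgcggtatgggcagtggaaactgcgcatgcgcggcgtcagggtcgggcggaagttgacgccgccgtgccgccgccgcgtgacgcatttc
HSPA8 promoter: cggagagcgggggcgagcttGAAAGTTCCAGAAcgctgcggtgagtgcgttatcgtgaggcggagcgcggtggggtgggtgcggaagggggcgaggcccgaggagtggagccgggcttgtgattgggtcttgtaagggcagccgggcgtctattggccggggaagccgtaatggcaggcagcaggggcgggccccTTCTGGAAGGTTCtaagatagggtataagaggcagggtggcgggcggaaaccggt
The run of DNAJB6 lies at -131 to -119 from the start site, and those of HSPA8 at -230 to -218 and -55 to -43. DNAJA1 has its run downstream of the start, at 4 to 16. DNAJB6 was called higher on 1 of its probes, whereas HSPA8 and DNAJA1 were not called. Of the other called members, CCT6B has a 2-unit run in its window. The windows of DNAJB5, DNAJB2, HSPH1, PTGES3 and DNAJC27 hold none. Among the listed heat-inducible members 5 of 16 promoters (31.2%) hold a 2-unit run, and DNAJB1, HSP90AA1 and BAG3 do not. The windows of HSPD1 and HSPE1 share 204 bases on opposite strands. A search for the TCF motif letters CTTTGAT or CTTTGAA and their reverse complements, added after the data were seen, found 1 of the 72 promoters (1.39%, BAG2), beside 6.98% of all promoters. The median GC content was 63.7% in the member promoters and 58.3% in all promoters. Its part in these shares was not tested. A match is a description of letters and not a binding site. Only exact units in this window were searched, so a window without a run does not show that the gene lacks an element.

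Chaperone genes outside the symbol rule also gave few calls. Of 64 such genes 53 were tested, and 3 were called (5.66%, beside 15% of all genes): UNC45A and CLPP rose, HSPA13 fell, and 50 did not pass. UNC45A, an HSP90 cochaperone for myosin, read 9.27, 8.78 and 9.08 in shTCF7L1 cells, against 7.67, 8.21 and 7.37 in shCtrl cells. It was 2.45-fold higher in shTCF7L1 cells (log2 difference 1.29, SE 0.23, adjusted p = 0.00213), but the mean of its probes differed by 0.37 (adjusted p = 0.201). HSPA13, a microsomal HSP70 relative, read 4.74, 5.20 and 4.75 in shTCF7L1 cells, against 6.13, 5.57 and 5.88 in shCtrl cells.

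HSPA13 was called lower in shTCF7L1 cells (adjusted p = 0.00776), but its probe was detected on 1 of 3 shTCF7L1 arrays and 3 of 3 shCtrl arrays. It passed the detection filter mainly through the group where it is high, and the size of its difference is not given because most shTCF7L1 values were not above background. With detection required on all arrays another HSPA13 probe takes its place and differs by -0.17 (adjusted p = 0.596). CLPP, a mitochondrial protease subunit rather than a chaperone, read 8.40, 7.98 and 8.36 in shTCF7L1 cells, against 7.38, 7.67 and 7.61 in shCtrl cells (1.62-fold higher, SE 0.20, adjusted p = 0.0304). The CLPP call held without shTCF7L1 replicate 2 and was lost without any other single array. The adjusted p then reached 0.106 (without shCtrl replicate 1), and the log2 difference ran from 0.61 to 0.75. With the authors' processed values it was also lost (adjusted p = 0.0737). The 6 prefoldin subunits, which hand chains to the CCT ring, gave 0 calls and a median of -0.31, and the 5 tubulin cofactors gave 0 calls and a median of -0.38. The 7 chaperones of the endoplasmic reticulum, such as HSPA5 and HSP90B1, also gave 0 calls, with a median of -0.14.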

How the data were processed

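RNA of 6 HCT116 samples was measured on Illumina BeadChips, and groups and replicate numbers came from the labels. The deposited table gives an average bead intensity per probe and array on a linear scale, not normalized, per the file headers, made with GenomeStudio 2011.1 per the submitters' processing notes. The deposited detection p-value, per the file headers, compares each probe with negative controls. The authors' series matrix holds an intensity that is a straight-line function of the same signal, and served as an alternative.

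Intensities were corrected and quantile normalized with neqc (limma 3.58.1, R 4.3.3, offset 16). Probes with detection p below 0.01 on at least 3 of 6 arrays were kept (16835), and 68 blank rows were left out. The platform annotation names 1 gene for 30110 probes; symbols were updated through Entrez identifiers to GRCh38.p14. Each gene was read on its kept probe of highest mean. Groups were compared with limma (lmFit, eBayes, 2-sided) and Benjamini-Hochberg over 10470 genes, without a block. Same-numbered samples did not deviate together (correlations of -0.01 in every pair), so numbers were not taken as pairs.

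Named genes are every called member, the member of smallest p in each role group without a call, and a fixed set of central chaperones; others were named after their values were seen. The members and lists were chosen with earlier results of these data known. The code was tested on simulated data. The number of arrays limits the precision.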

Additional observations from a re-analysis of the deposited data

How the results depend on the processing

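The count of members called was small and moved with the processing in the 18 alternatives run. None turned the direction of a called gene, but that was largely fixed in advance. The groups of the called genes did not overlap, so leaving out 1 array could not turn it. Several other alternatives refit the same values. With the authors' processed values 782 genes and 3 members were called (2 higher, 1 lower), where 1566 genes and 7 members were called in the fit reported. Without a detection filter, where more genes were tested, 1115 genes and 4 members were called, 1 of the members lower. When every kept probe was tested on its own, 2 of the probes used for the members were called higher and 3 lower. Of the probes used for all genes 1516 were called in that fit. The BAG6 probe called higher in that fit is not the one used for its gene. Leaving out 1 array at a time gave 3 to 5 members (2 to 3 higher, 1 to 3 lower). The same fits gave 1007 to 1156 genes and 2 to 5 of the other chaperone genes. Without shTCF7L1 replicate 3, the array set apart on the second component, 1156 genes and 5 members were called. With the replicate number as a block 1451 genes and 4 members were called, 2 of the members higher. The labels do not say whether the numbers pair the samples. The members' median stayed between 0.03 and 0.06 in the fits with 1 array left out. DNAJB5 and CCT6B were called in every alternative in which they could be tested, and DNAJB6 in every alternative except the mean of its probes. The cause of the other changes was not tested.

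The 3 arrays a group bound what can be seen, since the median SE of a member was 0.21 on the log2 scale. Dim probes such as CCT6B depend on the background correction for the size of their difference. Medians and counts describe the probes used, and another probe of the same gene can differ.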
